A study of Mus musculus with 32 samples.

Results

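The striatum of R6/2 mice was compared with that of wild-type mice after both had received HSP990 (NVP-HSP990), a compound that blocks the chaperone HSP90. The comparison took every array labelled as HSP990-treated: 8 from R6/2 mice and 10 from wild-type mice, 18 of the 32 arrays in the series. It covered all 18193 genes represented by a probe set with a single gene symbol. All mice were male, 12 weeks old, and bred from CBA and C57Bl/6 stock. The R6/2 mice carry a transgene with the first part of the human huntingtin gene, including an expanded CAG repeat, driven by the human promoter. The treated mice had received 12 mg/kg by gavage and were examined 4 h later, dosing took place in the afternoon, and dissection typically fell late in the light cycle. The other 14 arrays, 7 from R6/2 and 7 from wild-type mice given vehicle alone, gave the same genotype comparison without the drug. The labels name no animals, so p-values measure the spread between these arrays. The whole striatum was extracted, so fewer cells of a type and less RNA per cell cannot be told apart in any result that follows.

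Most striatal neurons are medium spiny neurons, which are inhibitory and receive dopamine through D1 or D2 receptors, glutamate from cortex and thalamus, and modulation by cyclic AMP. They are the neurons most affected in Huntington's disease, in which an expanded polyglutamine stretch in huntingtin disturbs transcription. HSP90 normally holds the heat shock transcription factors in check, and inhibiting it turns on genes for chaperones such as HSP70. The comparison therefore asks how the R6/2 striatum differs from the wild-type striatum while that response is under way.

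The values are log2 signals, and a level is given on that scale for 1 probe set, so levels of different genes cannot be ranked. The tissue label was borne out by Ppp1r1b, the dopamine-regulated phosphatase inhibitor of spiny neurons, at 12.11 to 12.60 in wild-type arrays against a median of 5.77 over all probe sets. The treatment label was borne out by Hspa1a, an inducible HSP70 gene, at 10.82 to 11.58 in treated wild-type arrays and 5.27 to 6.71 in wild-type arrays on vehicle. Several features of the arrays did not follow the groups evenly. The 3' bias, here the mean 3' minus 5' signal of the Gapdh and Actb control probe sets, had a low, median and high of 0.87, 1.46 and 4.56 in R6/2 and 0.64, 1.04 and 1.61 in wild type (difference 0.78, two-sided exact permutation p = 0.0238, adjusted p = 0.0477 over 12 array measures). R6/2 replicate 5 held the highest of these values. Transcripts of liver were raised in some arrays: Alb, the gene of serum albumin, was over 9 in 4 of 8 R6/2 arrays and 1 of 10 wild-type arrays. Choroid plexus and cortical transcripts varied widely within both genotypes, Ttr between 11.61 and 14.63 in wild type and 11.62 and 14.66 in R6/2, and Slc17a7 between 4.58 and 7.84 and 4.50 and 7.95. The part of these features in single results was not tested, except where a value with them in the fit or without those arrays is given.

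Under HSP990 the genotypes differed in 6108 of 18193 genes (33.6%) at an adjusted p under 0.05 in limma. More genes were higher in R6/2 than lower, 4110 (22.6%) against 1998 (11.0%), but the lower genes differed by more. The median difference was 0.36 log2 units among genes called higher and -0.46 among genes called lower, and 221 lower genes but 81 higher genes differed at least 2-fold. In 1098 genes (6.04%) every R6/2 array was above every wild-type array, and in 612 genes (3.36%) every R6/2 array was below, 9.40% of genes together. The median difference of all genes was 0.04. Variation was larger among R6/2 arrays, with a median SD of 0.182 against 0.148 in wild type, and 70.6% of genes had the larger SD in R6/2. Without the 5 treated and 3 vehicle arrays with Alb over 9, an alternative added after the data were seen, 4138 genes were called, 2689 higher and 1449 lower. Among treated arrays this left 4 from R6/2 and 9 from wild type. List counts in this alternative are set beside these smaller numbers.

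**Figure D1:**
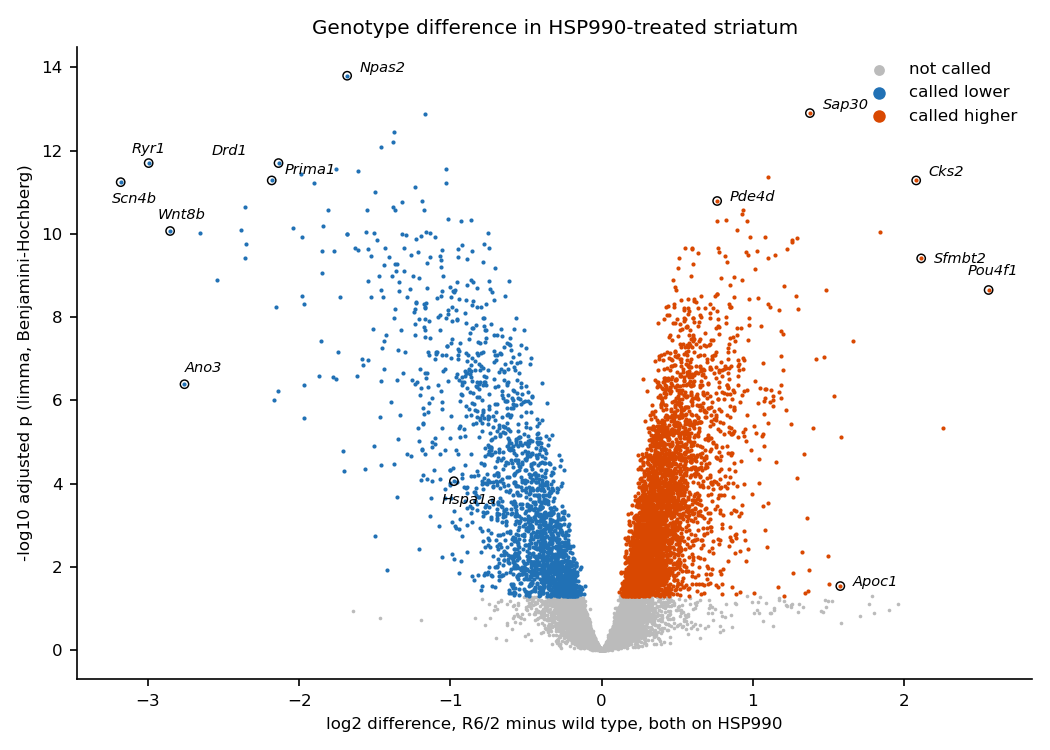
Each point is 1 of 18193 genes. The horizontal axis is the log2 difference between R6/2 and wild type on HSP990 and the vertical axis is -log10 of the adjusted p; blue marks the 1998 genes called lower, orange the 4110 called higher and grey those not called. The falls reach further out (Scn4b, -3.18) than the rises (Pou4f1, 2.56).

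The genes that fell furthest included some for channels, receptors and signalling proteins, beside enzymes, a secreted ligand and others. Scn4b, the sodium channel subunit that supports resurgent current, was at 12.19, 12.69 and 12.96 (lowest, median and highest array) in wild type and 9.0, 9.45 and 10.0 in R6/2. Every R6/2 array was thus more than 2 log2 units below every wild-type array, and Scn4b fell 9.07-fold (log2 -3.18 ± 0.23, SE, n = 8 and 10, adjusted p = 5.75e-12). Ryr1, a calcium release channel of the endoplasmic reticulum, went from 8.07, 8.68 and 9.25 to 5.29, 5.72 and 6.12 and fell 7.98-fold (-3.0 ± 0.20, adjusted p = 2.00e-12). Wnt8b, a secreted Wnt ligand, fell 7.23-fold (-2.85 ± 0.24) and Ano3, a membrane protein of the anoctamin family, 6.77-fold (-2.76 ± 0.37). Phex, a membrane endopeptidase, fell by 2.65 ± 0.22, and Car12, a carbonic anhydrase, by 2.54 ± 0.24 on the log2 scale. Lrrc10b, Rasgrp2 (a calcium-regulated activator of Rap), Sdr39u1 and Gpr6, an orphan receptor of striatopallidal neurons, fell as well (-2.39, -2.36, -2.36 and -2.35). Prima1, the membrane anchor of acetylcholinesterase, fell by 2.18 and the immediate early gene Egr2 by 2.16. Dmkn, Abi3bp and Drd1 completed the 15 largest falls at -2.15, -2.14 and -2.14. The groups did not overlap in 14 of the 15, the exception being Abi3bp (5.17 to 7.27 in wild type, 3.17 to 5.46 in R6/2), and 14 were also called lower on vehicle (9.60% of all genes), the exception being Ano3 (-0.95, adjusted p = 0.0990). Sizes for genes with several probe sets depend on the probe set: averaging them gave -1.40 for Wnt8b, -1.58 for Ano3, -1.34 for Phex, -1.07 for Car12 and -0.94 for Rasgrp2.

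Receptors and G protein signalling genes of spiny neurons fell almost as a block. Of 27 measured members, 24 were lower in R6/2 (11.0% of all genes were), 1 was higher and 2 were not called. The list's median difference was -1.21 against 0.04 for all genes. In 18 members no R6/2 array reached the lowest wild-type array, as in 3.36% of all genes. Drd1, the D1 dopamine receptor, was at 11.26, 11.75 and 11.96 in wild type and 8.97, 9.64 and 9.99 in R6/2, a 4.40-fold fall (-2.14 ± 0.15, adjusted p = 2.00e-12). Drd2, the D2 receptor, was at 10.32, 11.11 and 11.39 against 7.65, 9.35 and 10.01, a 3.65-fold fall (-1.87 ± 0.24). The groups were separate for both receptors, and R6/2 arrays were more scattered for Drd2. Cnr1, the cannabinoid receptor on striatal terminals, fell 3.42-fold (10.46 to 11.63 in wild type, 8.87 to 10.16 in R6/2). The serotonin receptor genes Htr1b and Htr4 fell 2.99-fold and 2.56-fold. On the mean of their probe sets the log2 differences were -0.84 and -0.71. Htr2c was the member that was higher, 10.37 to 11.23 in R6/2 against 9.55 to 10.39 in wild type (0.74 ± 0.14, adjusted p = 0.000134). Only 1 of the 2 Htr2c probe sets was higher, and their mean gave 0.33 (adjusted p = 0.133).

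Downstream of the receptors, Rgs9, which speeds the shut-off of G protein signals in striatum, was at 11.62, 12.15 and 12.31 in wild type and 9.33, 10.15 and 10.53 in R6/2, a 4.12-fold fall (-2.04 ± 0.17). Rgs4 and Rgs14, of the same family, fell 3.60-fold and 2.69-fold. Ppp1r1b was at 9.45, 10.64 and 10.95 in R6/2, below its wild-type range, and fell 3.91-fold (-1.97 ± 0.20). Adcy5, the main adenylyl cyclase of spiny neurons, was at 11.68, 12.19 and 12.30 against 9.87, 10.61 and 10.81 (-1.56 ± 0.13). Of its 4 probe sets 1 was called in the opposite direction, and their mean gave -0.54. Rasd2, a small G protein enriched in striatum, fell 2.75-fold, Arpp21 (a cyclic AMP regulated phosphoprotein) 2.34-fold, the phosphatase gene Ptpn5 2.23-fold and the G protein subunit gene Gng7 2.01-fold. The groups overlapped for Gng7 alone among these 4. The list held 24 lower members in each of the alternatives with 3' bias or liver transcripts as covariates or without the arrays high in either.

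**Figure D2:**
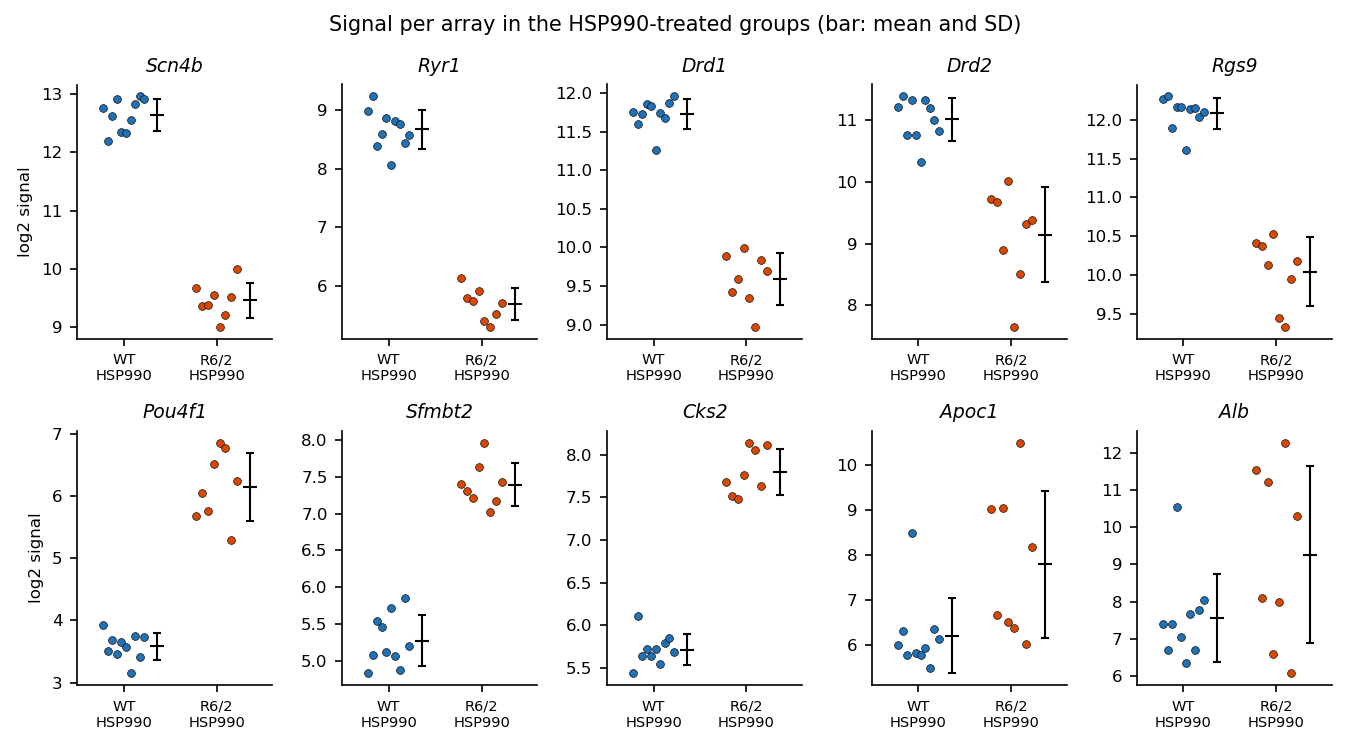
Log2 signal of 10 genes in the 10 wild-type (blue) and 8 R6/2 (orange) arrays on HSP990; each point is an array, and bars give the mean and SD. For Scn4b, Ryr1, Drd1, Drd2, Rgs9, Pou4f1, Sfmbt2 and Cks2 the groups are separate, while Apoc1 and Alb are spread over several log2 units within R6/2.

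Phosphodiesterases, which break down cyclic AMP and cyclic GMP, moved in both directions. Of 18 measured genes, 9 fell and 3 rose (11.0% and 22.6% of all genes did), with a median of -0.27. Pde10a, the dual-specificity enzyme concentrated in spiny neurons, was at 12.33, 12.53 and 12.92 in wild type and 10.46, 11.00 and 11.54 in R6/2, a 3.00-fold fall (-1.59 ± 0.19, and -2.38 as the mean of its 5 probe sets). Pde1b, the calmodulin-dependent form, fell 2.61-fold and Pde7b 2.13-fold, both without overlap. Pde4d was the clearest rise: its R6/2 arrays were at 9.24 to 9.47 and its wild-type arrays at 8.48 to 8.75 (0.76 ± 0.06, adjusted p = 1.63e-11). Pde3b (0.38 ± 0.06) and Pde7a (0.37 ± 0.07) also rose with no overlap, but 2 of the 7 Pde7a probe sets went the other way and the call was lost on their mean.

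Transcription factors of spiny neurons were mostly lower or not called. Of 19 measured, 9 were lower (11.0% of all genes were) and 1 higher (median -0.24). Without the arrays with Alb over 9, 6 were lower, where 1449 of all 18193 genes were. Rarb, a retinoic acid receptor of the striatum, fell 2.56-fold (10.23 to 10.86 in wild type, 8.67 to 9.82 in R6/2), and Rxrg, of the family that pairs with it, 2.22-fold. Foxo1 fell 2.33-fold, Klf16 2.29-fold and Bcl11b, which is required for spiny neuron differentiation, 1.84-fold (-0.88 ± 0.11), each without overlap between the groups. Ikzf2 was the member that rose (0.48 ± 0.12, adjusted p = 0.00175).

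Both main opioid peptide genes of spiny neurons fell. Penk, the enkephalin precursor of D2 receptor neurons, was at 13.08, 13.31 and 13.44 in wild type and 11.14, 11.87 and 12.18 in R6/2 (2.75-fold lower, -1.46 ± 0.14). Pdyn, the dynorphin precursor of D1 receptor neurons, fell 2.09-fold (8.29 to 8.90 against 6.95 to 7.97). Tac1, the substance P precursor of the same neurons, was at 11.69 to 12.54 and 11.26 to 12.17 and was not called (-0.33 ± 0.14, adjusted p = 0.0620). It was called with only the treated groups fitted, with array weights and without dim probe sets. Npy, which marks a class of interneurons, fell by 0.56 ± 0.10. In all, 6 of 19 measured peptide genes fell (11.0% of all genes did) and none rose. Without the arrays with Alb over 9, 3 fell, where 1449 of all 18193 genes did. Of 15 interneuron markers 8 fell (11.0% of all genes did) and none rose, and 4 fell without the arrays with Alb over 9 (1449 of all 18193 genes did). Among the 8 were Nos1, the neuronal nitric oxide synthase (-0.71 ± 0.09), and Slc18a3, the vesicular acetylcholine transporter (-0.87 ± 0.11). The mean level of these 15 genes per array was 7.61 to 7.95 in R6/2 and 7.87 to 8.21 in wild type (two-sided exact permutation, adjusted p = 0.00137). The list was chosen with earlier results of these data known, so this p-value is a description.

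Many of the genes that neuronal activity induces fell. Of 30 measured, 18 fell (11.0% of all genes did), none rose and 12 were not called, with a median of -0.63. Egr3, a transcription factor induced by synaptic input, was at 11.27, 11.37 and 11.86 in wild type and in a narrow band of 10.07, 10.10 and 10.21 in R6/2 (2.49-fold lower, -1.32 ± 0.11). The mean of the Egr3 probe sets gave -0.87. Arc, which acts at synapses to remove glutamate receptors, was at 8.52 to 9.78 against 7.71 to 8.06, a 2.31-fold fall. Npas4 fell 2.95-fold with slight overlap (6.07 to 7.95 against 4.71 to 6.15). Homer1, a postsynaptic scaffold with an activity-induced short form, fell 2.07-fold and the kinase gene Plk2 1.98-fold, both without overlap.

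Clock genes were affected in both directions. Of 19 genes of the circadian clock and its PAR bZIP output factors, 10 fell (11.0% of all genes did), 2 rose and 7 were not called (median -0.46). In 8 the R6/2 arrays lay wholly below, as in 3.36% of all genes. Npas2, the forebrain partner of Bmal1, had the smallest adjusted p of the genes named here: 9.30, 9.55 and 9.64 in wild type against 7.61, 7.82 and 8.07 (3.21-fold lower, -1.68 ± 0.09, adjusted p = 1.60e-14). Dbp, a clock output factor, fell 2.20-fold, Per1 1.62-fold and Nr1d1 1.55-fold. Cry1, a repressor of the clock, rose 1.47-fold (8.24 to 8.77 against 7.68 to 8.19), and Nfil3, which opposes Dbp at shared sites, rose 1.33-fold with overlap.

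Ion channels were a further large group of falls. Of 38 potassium channel genes, 16 fell and 1 rose, where 11.0% of all genes fell. Among 28 sodium and calcium channel genes, Scn4b and Ryr1 included, 14 fell and 2 rose. Kcnip2, a subunit of A-type channels, was at 10.73, 11.16 and 11.48 in wild type and 9.33, 9.62 and 9.94 in R6/2 (2.83-fold lower). Kcnj4, an inward rectifier of spiny neurons, fell 2.84-fold with overlap (7.82 to 9.07 against 5.56 to 8.04), and Kcnab1 fell 2.05-fold without. Kcns2, a silent subunit that modifies Kv2 channels, was at 8.53 to 9.16 against 7.62 to 7.96 (-1.03 ± 0.07). The calcium channel subunit genes Cacng3, Cacng4 and Cacna2d3 fell 3.34-fold, 2.58-fold and 2.08-fold, all without overlap; Cacng3 and Cacng4 belong to a family that also carries AMPA receptors to the surface. The 3 channel genes that rose were Kcnj3 (0.95 ± 0.28), Cacng8 (0.70 ± 0.15) and Cacna2d1 (0.37 ± 0.10). Their groups overlapped, and each lost its call when its probe sets were averaged.

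At the synapse, 15 of 30 glutamate and GABA receptor genes fell and 2 rose. Vesicle and scaffold genes fell in 15 of 34 and rose in 2, where 11.0% of all genes fell. Gabrd, the delta subunit of extrasynaptic GABA receptors, fell 2.88-fold (9.69 to 10.50 in wild type, 8.37 to 9.0 in R6/2). Its log2 difference was -0.78 on the mean of its probe sets. The metabotropic glutamate receptor genes Grm4, Grm3 and Grm5 fell 2.12-fold, 1.85-fold and 1.80-fold, and the kainate receptor gene Grik2 1.84-fold, with no overlap in any of the 4. Gabra5 (0.69 ± 0.22) and Gabrg1 (0.43 ± 0.13) were the subunits that rose, and neither was called without the arrays with Alb over 9. Shank3, a scaffold beneath glutamate receptors, was at 9.55 to 10.21 against 7.70 to 8.97 (2.88-fold lower). Its partners Dlgap3 and Baiap2 fell 2.63-fold and 2.04-fold, and the calcium-dependent kinase gene Camk4 2.20-fold. Dlg4, which encodes PSD-95, fell 2.82-fold as fitted, but R6/2 replicate 5 was at 5.86 with the other 7 R6/2 arrays from 8.36, and with 3' bias as a covariate the difference was -0.81 (adjusted p = 0.0212). Baiap3, a regulator of dense-core vesicle traffic, rose 2.57-fold and Cplx1, which clamps vesicle fusion, 1.20-fold; the call of Cplx1 was lost on the mean of its probe sets. Without the arrays with Alb over 9 the falls numbered 11 in each list, where 1449 of all 18193 genes fell.

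**Figure D3:**
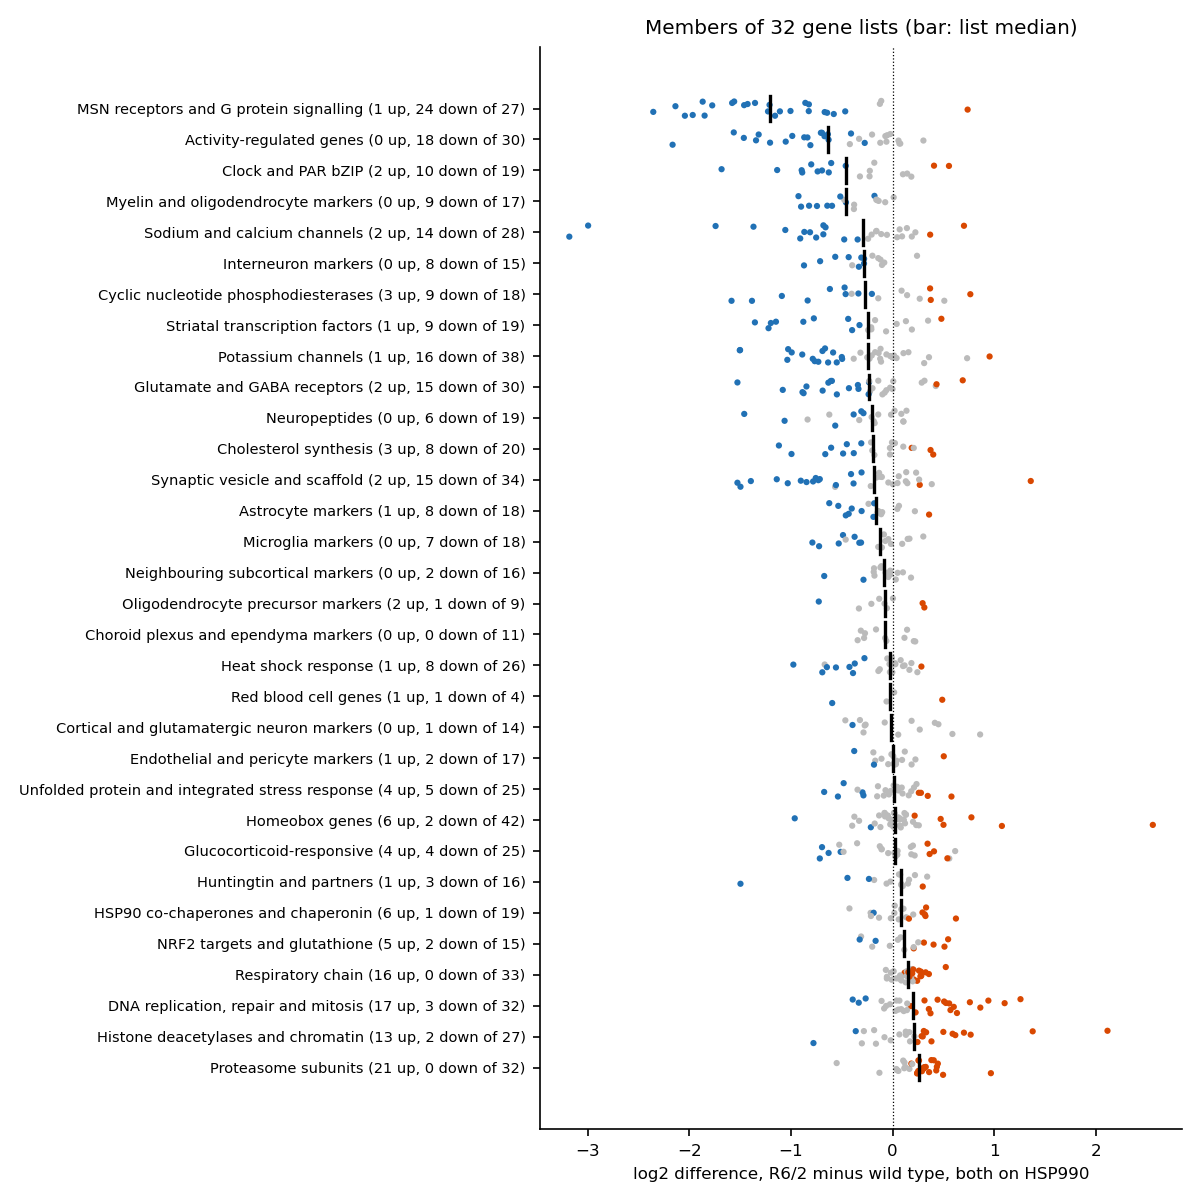
Each point is a measured member of 1 of 32 gene lists, placed by its log2 difference between R6/2 and wild type on HSP990; blue members were called lower, orange called higher and grey not called, and the black bar is the list's median. Medians run from -1.21 (receptors and G protein signalling of spiny neurons) to 0.26 (proteasome).

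The largest rise was that of a gene with low signal in wild-type striatum. Pou4f1, a homeobox factor of sensory and habenular neurons, was at 3.15, 3.61 and 3.92 in wild type, below the median of all probe sets, and 5.29, 6.14 and 6.86 in R6/2, so every R6/2 array was higher (5.90-fold, 2.56 ± 0.25, adjusted p = 2.23e-09). Sfmbt2, a Polycomb group gene, went from 4.83, 5.17 and 5.86 to 7.02, 7.35 and 7.96 (4.33-fold, 2.11 ± 0.19). Cks2 and Cks1b, small subunits that bind cyclin-dependent kinases, rose 4.23-fold (5.44 to 6.11 against 7.48 to 8.14) and 3.59-fold (5.70 to 6.61 against 7.85 to 8.30). These 4 genes were separate between the groups.

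Among the other large rises, Insyn2b (3.17-fold), Tnnt2, the cardiac troponin T gene (2.90-fold), the calpain inhibitor gene Cast (2.80-fold), the interferon-induced gene Ifit1 (2.77-fold), Kazald1 (2.67-fold), the homeobox gene Shox2 (2.63-fold) and Sap30, a component of the Sin3 deacetylase complex (2.60-fold), were higher in every R6/2 array than in any wild-type array. Gng4, a G protein subunit gene, and Glra3, a glycine receptor subunit gene, rose 2.99-fold and 2.82-fold with overlap. Sizes again depend on the probe set. Averaging gave log2 differences of 1.01 for Gng4, 0.76 for Glra3, 0.97 for Tnnt2 and 0.91 for Shox2. Apoc1 and Pon1, which encode lipoprotein-associated proteins made in liver, stood apart. Apoc1 ranged from 6.03 to 10.49 in R6/2 and from 5.51 to 8.48 in wild type (1.58 ± 0.56, adjusted p = 0.0286), and Pon1 from 4.15 to 8.82 and from 4.02 to 5.96 (1.5 ± 0.53, adjusted p = 0.0262). Without the arrays with Alb over 9 their differences were 0.44 (adjusted p = 0.115) and 0.25 (adjusted p = 0.143), and neither was called. Of the 15 largest rises, 10 were also called higher on vehicle (11.9% of all genes were). In 6 the mean signal was no higher than the median of all probe sets, as in 38.1% of all genes.

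Genes of DNA replication, repair and mitosis rose more often than they fell. Of 32 measured, 17 rose (22.6% of all genes did), 3 fell (11.0%) and 12 were not called, with a median of 0.20. However, 17 of the 32 had mean signals no higher than the median probe set. Cenpe, a kinesin of the kinetochore, was at 4.46 to 5.07 in wild type and 5.51 to 5.92 in R6/2 (2.15-fold higher), and Tcf19, a gene of the transition into S phase, at 6.18 to 6.71 against 6.91 to 7.72 (1.82-fold). Rrm1, a subunit of ribonucleotide reductase, rose 1.48-fold and the checkpoint kinase gene Chek1 1.44-fold; for Rrm1 only 1 of 3 probe sets was higher. The 3 members that fell were Ccnd2 (-0.39), Fancd2 (-0.33) and Ccna2 (-0.27), with overlap; the mean of probe sets ended the call of Fancd2, and the liver covariate those of the cyclin genes. Homeobox genes as a class did not follow Pou4f1: of 42 measured, 6 rose and 2 fell, a share of 19.0% called against 33.6% of all genes. Irx5 (1.08 ± 0.18) and Onecut1 (0.78 ± 0.10) were among the rises, and Pou3f1 (-0.96 ± 0.16) and Pou3f2 fell.

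Several chromatin genes rose. Of 27 measured genes of histone deacetylases and chromatin, 13 rose and 2 fell (22.6% and 11.0% of all genes did). Sap30 and Sfmbt2 stand among the 13. Hdac1 was at 7.70 to 8.05 in R6/2 and 6.94 to 7.30 in wild type (0.77 ± 0.08). The members that fell were Dnmt3a, a DNA methyltransferase (-0.78 ± 0.10), and Hdac11 (-0.36 ± 0.08).

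Proteasome subunit genes were higher without an exception among those called. Of 32 measured, 21 rose and none fell (background 22.6% higher), and the median was 0.26. Without the arrays with Alb over 9, 15 rose, where 2689 of all 18193 genes did. Psmb10, a catalytic subunit of the immunoproteasome, rose 1.95-fold (8.71 to 9.23 against 7.60 to 8.17). Psma5 and Psmd1, of the core and the regulatory particle, rose by less, 0.43 ± 0.04 and 0.38 ± 0.06, and again without overlap. Of 33 respiratory chain genes, 16 rose (22.6% of all genes did) and none fell (median 0.15). The rises were small: Sdha of complex II by 0.52 ± 0.06, Ndufv1 of complex I by 0.36 ± 0.07 and Ndufb8 by 0.32 ± 0.05, each with separate groups. Of 15 NRF2 target and glutathione genes, 5 rose and 2 fell, where 22.6% of all genes rose and 11.0% fell. Those that rose were Txn1 (0.55), Gsta4 (0.51), Nqo1 (0.40), Gstp1 (0.31) and Gclm (0.21). Srxn1 (-0.32) and Fth1 (-0.17) fell.

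Heat shock genes are known to respond to HSP90 inhibitors, and several were less abundant in treated R6/2 than in treated wild-type mice. Of 26 measured members, 8 fell (11.0% of all genes did), 1 rose (22.6% of all genes did) and 17 were not called. In either direction 34.6% were called, near the 33.6% of all genes, and the median was -0.03. On vehicle 8 of the same 26 members were higher (11.9% of all genes). Heat shock factors bind alternating repeats of GAA and TTC, and sequences are shown for the called members with such a motif in their promoter window. The motif sought was GAANNTTCNNGAA or TTCNNGAANNTTC, which together cover both strands. It occurred in 198 of 32851 RefSeq promoter windows (0.603%), each running from 250 bases before a start to 50 after, and in windows of 4 of the 22 heat shock members that have one: Hsph1, Dnajb6, Hspd1 and Hspe1. Such a match describes letters and is not a measured binding site. Hspe1 and Hspd1 lie head to head and share the stretch shown first (GRCm38.p6, chr1:55088038-55088097, plus strand), in which 2 overlapping motifs, in capitals, lie 89 to 72 bases before the Hspe1 start and 127 to 144 bases before a start of Hspd1. The second is from Hsph1 (chr5:149636280-149636308, minus strand), where the motif lies 16 to 28 bases past a start.
Hspe1 and Hspd1: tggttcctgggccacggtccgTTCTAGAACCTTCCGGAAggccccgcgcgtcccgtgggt
Hsph1: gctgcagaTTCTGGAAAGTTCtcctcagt

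Hspe1, the small subunit of the mitochondrial chaperonin, was at 11.82, 12.05 and 12.32 in treated wild type and 11.27, 11.48 and 11.65 in treated R6/2, a 1.47-fold fall (-0.56 ± 0.07, adjusted p = 3.26e-07). Hspd1, the large subunit, was at 11.51 to 11.96 against 10.96 to 11.72 (-0.39 ± 0.08, adjusted p = 0.000186). Hsph1, an HSP110 nucleotide exchange factor, was at 12.56, 12.72 and 12.97 against 11.84, 12.06 and 12.40 (-0.65 ± 0.08). Hspa1a was at 10.82, 11.21 and 11.58 against 9.81, 10.26 and 10.64, a 1.97-fold fall (-0.98 ± 0.19, adjusted p = 8.68e-05). Hspe1, Hsph1 and Hspa1a did not overlap between the genotypes. Hspa1b, whose sequence is almost that of Hspa1a so that probe sets may share signal, was at 12.66 to 13.25 against 11.99 to 12.81 and was not called in the reported fit (-0.67 ± 0.28, adjusted p = 0.0633), though it was with the treated groups fitted alone.

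The small heat shock protein genes Hspb1 and Cryab fell by 0.37 ± 0.11 and 0.42 ± 0.15, Dnajb5 of the HSP40 family by 0.69 ± 0.15 and Hspa4l by 0.28 ± 0.10, all with overlap. Without the arrays with Alb over 9, Hspb1 and Cryab were not called, and Cryab was not called without R6/2 replicate 6 or wild-type replicate 2. Hspa4l was not called with 3' bias as a covariate (-0.14, adjusted p = 0.249). Hspa2, the HSP70 gene of germ cells, rose by 0.28 ± 0.09 and was not called without the arrays with Alb over 9. Genes that HSP990 raised in wild type but that had no called genotype difference included Hsp90aa1, the inducible HSP90 gene (0.01 ± 0.06), Hspa8 (0.10 ± 0.05), the HSP40 gene Dnajb1 (0.18 ± 0.07, adjusted p = 0.0541) and the HSP70 partner gene Bag3 (-0.05 ± 0.12). Dnajb1 was called in 10 of 44 alternatives, the fit of the treated groups alone among them, and was at -0.02 on the mean of its probe sets.

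**Figure D4:**
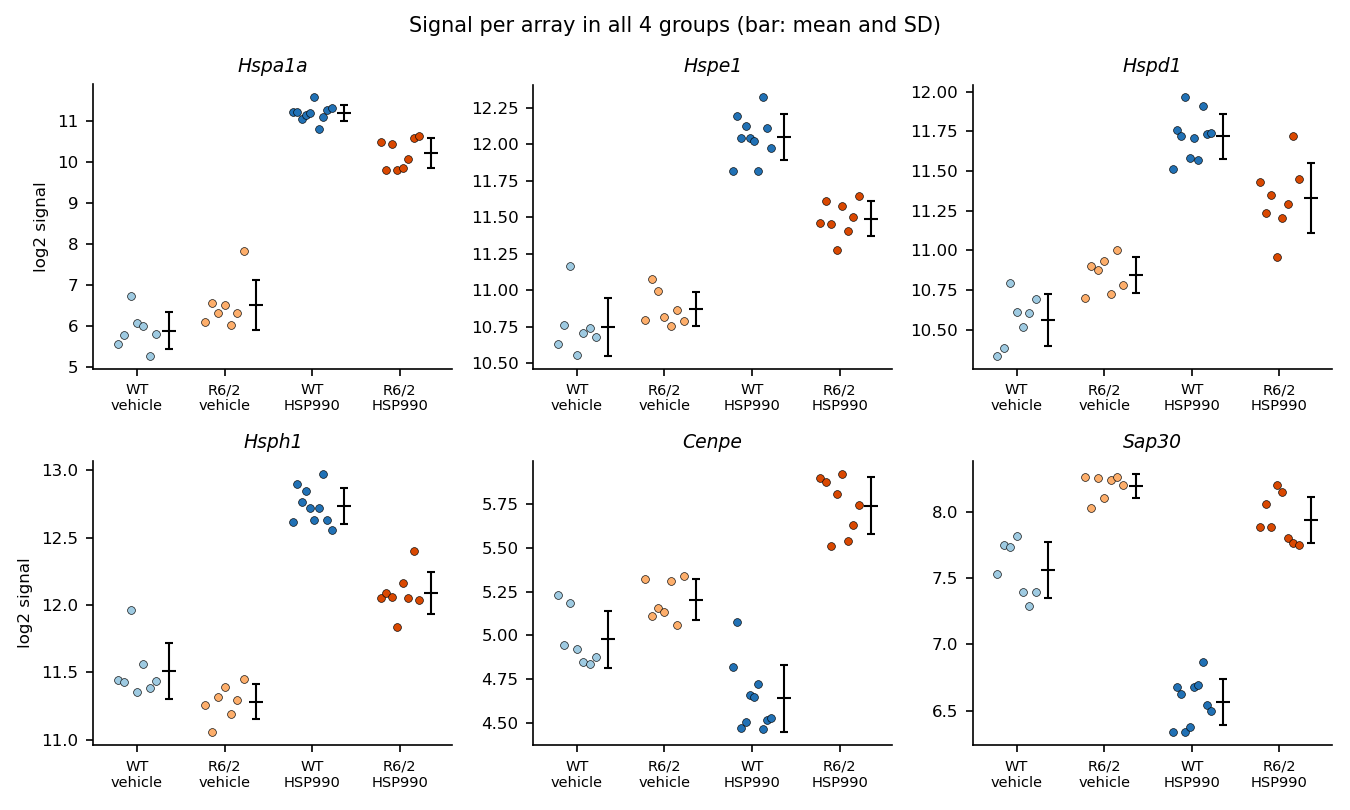
Log2 signal per array in the 4 groups for 4 heat shock genes and for Cenpe and Sap30, with the mean and SD beside the points. Hspa1a is at 5.27 to 7.82 on vehicle and above 9.8 in every treated array, with treated R6/2 (orange) below treated wild type (dark blue); Cenpe and Sap30 are lowest in treated wild type.

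The genotype difference of 2 heat shock genes, Hspa1a and Hspd1, was called on both treatments with opposite signs. Of the 26 members, 24 had a lower difference under HSP990 than on vehicle, which was so of 37.9% of all genes. For Hspa1a the difference was 0.63 on vehicle and -0.98 under HSP990, a change of -1.61 ± 0.28 (interaction, adjusted p = 0.00543). For Hspd1 it went from 0.28 to -0.39 (-0.67 ± 0.12, adjusted p = 0.00556) and for Hspe1 from 0.12 to -0.56 (-0.68 ± 0.11, adjusted p = 0.00289). These 3 members had a called interaction (0.247% of all genes). On vehicle, R6/2 replicate 7 stood apart for Hspa1a at 7.82. The other R6/2 vehicle arrays were at 6.01 to 6.57 and wild-type vehicle arrays at 5.27 to 6.71. The interaction of Hspa1a kept its call with any single array left out. The drug raised Hspa1a by 5.31 in wild type and 3.70 in R6/2, Hspe1 by 1.30 and 0.62, and Hspd1 by 1.16 and 0.48. Of 19 HSP90 co-chaperone and chaperonin genes, 6 rose, the co-chaperone genes Ahsa2 (0.62 ± 0.11) and Unc45a and the chaperonin subunit genes Cct2 (0.32 ± 0.05), Cct3, Cct4 and Cct5, and St13 fell (-0.19 ± 0.05), 36.8% called against 33.6% of all genes. With 3' bias as a covariate 4 rose and 2 fell.

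Stress and metabolic lists were mixed. Of 25 genes of the unfolded protein and integrated stress response, 5 fell and 4 rose, 36% called against 33.6% of all genes. Ddit3, the CHOP transcription factor, fell 1.6-fold (9.04 to 9.62 against 8.62 to 8.78), Trib3 by 0.54 ± 0.08, Atf6 by 0.48 ± 0.10, Sdf2l1 by 0.30 and Hsp90b1, the chaperone of the endoplasmic reticulum, by 0.29. Edem1, of endoplasmic reticulum degradation, rose by 0.58 ± 0.08, asparagine synthetase (Asns) by 0.35, Manf by 0.28 and Creld2 by 0.26. Of 25 glucocorticoid-responsive genes 32% were called, again near the share of all genes: Ddit4 (-0.72), Per1 (-0.69), Dusp1 (-0.63) and Sgk1 (-0.51) fell and Cebpb (0.54), Nfil3 (0.41), Errfi1 (0.36) and Nfkbia (0.34) rose. Ddit4 and Sgk1 were not called with 3' bias as a covariate, nor Cebpb and Errfi1 on the mean of probe sets, and none of the 4 without the arrays with Alb over 9. Of 20 cholesterol synthesis genes, 8 fell and 3 rose (11.0% and 22.6% of all genes did). Msmo1, a sterol demethylase, fell 2.17-fold without overlap, Srebf2, the main activator of the pathway, 1.99-fold, Cyp46a1, the neuronal enzyme that turns cholesterol over, 1.58-fold and Cyp51 1.52-fold. Tm7sf2 (0.40), Hsd17b7 (0.37) and Pmvk (0.19) rose, and Pmvk was not called in 21 of 44 alternatives.

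Markers of other cells also differed by genotype. Of 17 myelin and oligodendrocyte genes, 9 fell (11.0% of all genes did). Among them were Ugt8a (-0.93 ± 0.17) and Fa2h (-0.82 ± 0.17), which make myelin lipids. Mal (-0.90 ± 0.19) and Mobp (-0.60 ± 0.13), which encode myelin proteins, fell too. The list's mean level was 9.39 to 10.03 in R6/2 and 9.70 to 10.55 in wild type (two-sided exact permutation, adjusted p = 0.00461). Marker lists were chosen with earlier results of these data known, so p-values of list means here are descriptions. Of 18 astrocyte markers 8 fell (11.0% of all genes did), for example the bicarbonate transporter gene Slc4a4 (-0.62 ± 0.17), and S100b rose (0.36 ± 0.12). Of 18 microglia markers 7 fell (11.0% of all genes did), among them the lysosomal gene Cd68 (-0.53 ± 0.11) and the fractalkine receptor gene Cx3cr1 (-0.49 ± 0.11). C1qa fell by 0.72 ± 0.24, but R6/2 replicate 5 was at 6.49 with the others from 8.75, and with 3' bias as a covariate it was not called (-0.29, adjusted p = 0.232). The list means were 9.63 to 9.84 against 9.78 to 10.07 for astrocytes and 7.52 to 7.97 against 7.88 to 8.13 for microglia (two-sided exact permutation, adjusted p = 0.00206 and 0.00229). Without the arrays with Alb over 9, 4 astrocyte and 4 microglia markers fell, where 1449 of all 18193 genes did. Fewer members of the remaining marker lists were called, and their shares stand beside the 33.6% of all genes. Among 9 oligodendrocyte precursor genes Vcan fell and Bmp4 and Lhfpl3 rose (33.3% called). Among 17 endothelial genes Pecam1 and Abcb1a fell and Vwf rose (17.6%). Abcb1a was not called in 28 of 44 alternatives, nor Pecam1 with 3' bias as a covariate (-0.15, adjusted p = 0.326 in limma). Among 4 red cell genes Alas2 fell and Fech rose (50%), and among 14 cortical genes Lamp5 fell (7.14%). The choroid plexus list of 11 genes had a median of -0.07 with no call in limma. Of 16 markers of neighbouring subcortical regions Tnnt1 (-0.67 ± 0.13) and Trh fell (12.5%, near the 11.0% of all genes that fell). The list's mean level was 5.89 to 6.12 in R6/2 and 6.07 to 6.19 in wild type (two-sided exact permutation, adjusted p = 0.00461). Huntingtin's own mouse gene, Htt, was at 8.25 to 8.88 in wild type and 8.26 to 8.94 in R6/2 (0.10 ± 0.13, adjusted p = 0.603), and where its probe set lies relative to the transgene's human sequence was not examined. Of 16 genes of huntingtin and its partners, Rest rose (0.30) and Dlg4, Sh3gl3 (-0.44) and Pacsin1 (-0.23) fell. That is 25% called against 33.6% of all genes.

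The same genotype comparison on vehicle, made with other arrays, called 3906 genes (21.5%), 2160 higher and 1746 lower, and 3.90% of genes had groups that did not overlap. Without the arrays with Alb over 9 the balance turned, with 669 higher and 934 lower. Of the 6108 genes called under HSP990, 1769 were higher and 1180 lower on vehicle as well, which is 48.3% of the calls under HSP990 and 75.5% of those on vehicle. Only 9 genes were called in opposite directions. Across genes the differences had r = 0.79, a description over genes that are not independent. The vehicle comparison has 14 arrays and the treated comparison 18, so the counts do not show which difference is larger. Drd1, for example, differed by -1.30 on vehicle and -2.14 under HSP990, but the change of -0.84 did not pass the test (adjusted p = 0.0836). The difference itself was called in 45 genes (0.247%) by limma's interaction test. The R6/2 minus wild-type difference was higher under HSP990 in 31 (0.170%) and lower in 14 (0.0770%), and 2345 had an unadjusted p under 0.05. In 22 of the 45 the genotype difference had opposite signs on the 2 treatments, and in 37 it was larger in size under HSP990.

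Outside the chaperones, the 45 included cell cycle genes. Cenpe was at 4.46 to 5.07 in treated wild type and 5.51 to 5.92 in treated R6/2, and its difference was 0.23 on vehicle and 1.10 under HSP990 (interaction 0.88 ± 0.12, adjusted p = 0.000359). HSP990 lowered Cenpe by 0.34 in wild type and raised it by 0.54 in R6/2. Tcf19 (interaction 1.06) and Chek1 (0.66) also had larger differences under the drug. Sap30 differed by 0.64 on vehicle and 1.38 under HSP990: the drug lowered it by 1.00 in wild type and by 0.26 in R6/2 (not called). Kcns2 differed by -0.29 and -1.03 (interaction -0.74 ± 0.11, adjusted p = 0.00140), and Mknk2, a kinase of the translation factor eIF4E, by -0.39 and 0.20. Cast had an interaction of 0.97 (adjusted p = 0.0476). It lost its call in 27 of 43 alternatives, among them array weights, the replicate block and 3' bias in the fit. Chek1 lost its call with 3' bias in the fit, and Cast, Chek1 and Cenpe lost theirs on the mean of probe sets. None of the 45 was called without the 8 arrays with Alb over 9, where 2007 genes had an unadjusted p under 0.05; there the interaction of Hspa1a was -1.90 (adjusted p = 0.0735) and that of Cenpe 0.86 (adjusted p = 0.0630).

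**Figure D5:**
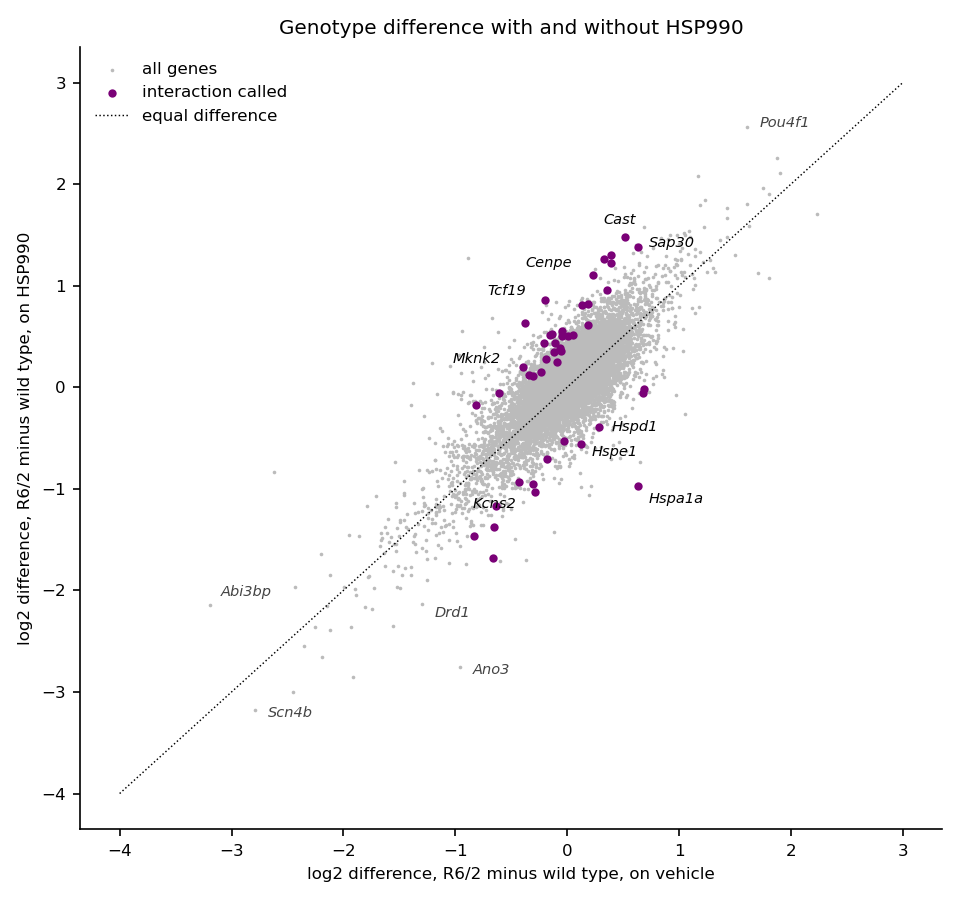
Log2 difference between R6/2 and wild type on vehicle (horizontal axis) and under HSP990 (vertical axis) for 18193 genes; purple marks the 45 genes with a called interaction and the dotted line marks equal differences. Most large differences, such as Scn4b, lie near the line, and Hspa1a lies below it, positive on vehicle and negative under HSP990.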

How the data were processed

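Striatal RNA was measured on 32 arrays with a 3' labelling kit, 1 colour each, per the labels' protocols. The deposited log2 values cover 45101 probe sets and range from 2.15 to 14.7, and array medians lie between 5.73 and 5.78; the background correction and normalization are not given in the sources used here. No further normalization was applied. Of the probe sets, 34945 carry 1 gene symbol in the platform annotation, 932 carry several and 9160 none, and 64 are controls. A gene was represented by its single-symbol probe set with the highest mean, which gave 18193 genes; 9010 had several to choose from.

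The 4 group means were fitted to all 32 arrays with limma 3.58.1 in R 4.3.3, and p-values were adjusted over all genes by Benjamini-Hochberg; a call is an adjusted p under 0.05. Errors are standard errors of the fitted difference. Array-level measures were compared by exact permutation, whose smallest p was 2.29e-05. On simulated data of the same design, 32% of changes of 0.25 log2 units, 80% of 0.5, 94% of 1 and 100% of 2 were recovered. There were 10 false calls among the unchanged genes. The simulation drew independent noise for each gene and changed few genes, where 33.6% were called here. Its rates therefore need not hold for the real comparison. The number of arrays limits the precision.

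Named genes were, by rule, the 15 largest called rises and falls (clone names passed over), the 10 called interaction genes with the smallest p, from every list the 4 lowest p-values and members called past 2-fold, all heat shock members, Htt, and members of small counts. The members and lists were chosen with earlier results of these data known. Alternatives changed the normalization, the handling of probe sets, the fit, the arrays and the replicate block. A liver transcript covariate and the removal of arrays with Alb over 9 were added after seeing the data. Sequences are from RefSeq tables on GRCm38.p6.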

Additional observations from a re-analysis of the deposited data

Results flagged for a closer look

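In 39 of 398 groups of 8 or 10 treated arrays examined, 1 array lay further from its nearest neighbour than Dixon's criterion allows; chance marks about 1 in 20 groups. On HSP990, wild-type replicate 6 stood below the rest of its group for Drd1 at 11.26 (next array 11.60), Rasd2 at 11.87 (next array 12.39), Pde1b at 12.35 (next array 12.79), Pde7b at 11.49 (next array 11.81), Tac1 at 11.69 (next array 12.16), Gabrd at 9.69 (next array 10.11), Baiap2 at 10.56 (next array 10.82) and Cyp46a1 at 10.58 (next array 11.08). On HSP990, wild-type replicate 4 stood above the rest of its group for Apoc1 at 8.48 (next array 6.36), Pon1 at 5.96 (next array 4.51), Alb at 10.54 (next array 8.05) and Gclm at 9.43 (next array 9.17). On HSP990, wild-type replicate 5 stood below the rest of its group for Klf16 at 7.78 (next array 8.33), Kcnj4 at 7.82 (next array 8.54), Dlg4 at 8.91 (next array 10.43) and Ddit4 at 8.03 (next array 8.54). On HSP990, R6/2 replicate 4 stood above the rest of its group for Ikzf2 at 7.70 (next array 7.12), Ccnd2 at 10.13 (next array 9.69) and Sgk1 at 9.60 (next array 9.20). On HSP990, R6/2 replicate 5 stood below the rest of its group for Dlg4 at 5.86 (next array 8.36), C1qa at 6.49 (next array 8.75) and Pecam1 at 4.39 (next array 5.06). On HSP990, R6/2 replicate 6 stood below the rest of its group for Ptpn5 at 9.61 (next array 10.23), Tac1 at 11.26 (next array 11.80) and Insyn2b at 5.38 (next array 5.90). On HSP990, R6/2 replicate 5 stood above the rest of its group for Pde7a at 8.32 (next array 8.00) and Ahsa2 at 10.15 (next array 9.78). On HSP990, wild-type replicate 10 stood above the rest of its group for Pde10a at 12.92 (next array 12.62) and Egr3 at 11.86 (next array 11.55). On HSP990, wild-type replicate 2 stood below the rest of its group for Rgs4 at 10.69 (next array 11.27) and Cnr1 at 10.46 (next array 11.11). On HSP990, wild-type replicate 6 stood above the rest of its group for Baiap3 at 7.68 (next array 6.52) and Hsp90aa1 at 13.49 (next array 13.28). Ccna2 was lowest in R6/2 replicate 2 at 5.79, with the next array at 6.06. Cyp51 was highest in R6/2 replicate 6 at 7.61, with the next array at 7.25. Pou3f2 was lowest in R6/2 replicate 8 at 6.60, with the next array at 6.86. Bag3 was highest in wild-type replicate 2 at 8.68, with the next array at 8.05. Mobp was lowest in wild-type replicate 3 at 12.32, with the next array at 12.82. Insyn2b was lowest in wild-type replicate 8 at 3.80, with the next array at 4.16.

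The genotype difference itself changed between vehicle and HSP990, by limma's interaction test, in 11 genes named in the text. The R6/2 minus wild-type difference was lower under HSP990 for Kcns2 (-0.74), Hspe1 (-0.68), Hspd1 (-0.67) and Hspa1a (-1.61) on the log2 scale. It was higher for Cast (0.97), Sap30 (0.74), Cenpe (0.88), Tcf19 (1.06), Chek1 (0.66), Mknk2 (0.60) and Pcdhb3 (0.91). None of them was called without the 8 arrays with Alb over 9, and their directions were the same there. Pcdhb3 also lost its call with the replicate block (adjusted p = 0.0778) and with 3' bias as a covariate (adjusted p = 0.189), and in 24 of 43 alternatives in all.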

How the results depend on the processing

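The numbers of calls under HSP990 and on vehicle stayed within 1.5 times the reported 6108 and 3906 in the alternatives run, except with all 34945 probe sets tested (10428 and 5968) and, on vehicle, without the arrays with Alb over 9 (1603). Leaving out each array in turn gave 5740 to 6305 and 3281 to 4379. The interaction count of 45 was less stable. It was 80 on the mean of probe sets, 73 with all probe sets, 150 with array weights, 16 with 3' bias as a covariate, 25 without the arrays of strong 3' bias and 0 without the arrays with Alb over 9, where 2007 genes had an unadjusted p under 0.05 in limma. Leaving out each array gave 30 to 182, with 182 without R6/2 vehicle replicate 1, 93 without wild-type vehicle replicate 7, 76 without wild-type HSP990 replicate 2 and 69 without R6/2 HSP990 replicate 2 or wild-type vehicle replicate 4; the cause was not tested. Replicate numbers are shared by the groups, but same-numbered arrays had correlations from -0.21 to 0.38 and were the best match for numbers 2 and 5 alone, so they were not taken as pairs. With the replicate number as a block, 5596, 3782 and 23 genes were called. The 3' bias difference was 0.39 without the arrays of strong 3' bias (exact permutation p = 0.0731). No called named difference reversed. Among called named genes, the call ended in 31 without the arrays with Alb over 9, 18 on the mean of probe sets and 16 with 3' bias as a covariate, and the mean of probe sets moved 51 values by over 1.5 times. The genes whose call under HSP990 ended without the arrays with Alb over 9 include Manf, Creld2, Nfil3, Tm7sf2, Bmp4, Lhfpl3, Pecam1, Abcb1a, Alas2, S100b, Rest, Pacsin1, Pou3f2, Gclm, Fth1, Cacna2d1 and Mknk2. Those of Vwf, Cct4 and Sdf2l1 ended with 3' bias as a covariate, those of Cct3, St13 and Cyp51 on the mean of probe sets, and that of Nfkbia with the block. In the simulation 32% of changes of 0.25 log2 units were recovered, but its setting differs from the data, where some called differences were smaller. The p-values say nothing of animals that the labels do not name.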

Other observations

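These gene groups were listed after their values had been seen, and their counts are descriptions. The other lists were chosen with earlier results of these data known. Interferon-stimulated genes, which cells switch on in response to interferon or to nucleic acid in the cytosol, rose in part in treated R6/2 striatum. Of 20 measured, 13 rose (22.6% of all genes did) and none fell, with a median of 0.50. On vehicle 8 of 20 were higher (11.9% of all genes). Usp18, which damps interferon receptor signalling, was at 3.26, 3.81 and 4.35 in wild type and 4.49, 4.98 and 5.58 in R6/2, so the groups were separate (2.38-fold, 1.25 ± 0.19, adjusted p = 3.74e-06 in limma). Rtp4 rose by 1.04 ± 0.20 and Ifi35 by 0.79 ± 0.16, with overlap. The signal was low, 9 of the 20 having a mean no higher than the median of all probe sets. Without the arrays with Alb over 9, 8 rose, where 2689 of all 18193 genes did.

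Clustered beta protocadherins, cell-surface proteins that neurons express in individual combinations, did so too: 11 of 22 measured rose (22.6% of all genes did), with a median of 0.22. In 8 every R6/2 array was above every wild-type array, as in 6.04% of all genes. Pcdhb3 was at 5.56, 6.10 and 6.60 in wild type and 7.25, 7.30 and 7.85 in R6/2 (2.46-fold, 1.30 ± 0.14, adjusted p = 6.48e-09 in limma). Pcdhb12, Pcdhb9 and Pcdhb21 rose by 1.01, 0.93 and 0.92 without overlap. These genes resemble each other in sequence and lie side by side, so probe sets may share signal.

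Of 20 liver transcripts, 5 were called higher in treated R6/2 (Apoc1, Mbl2, Pon1, Adh1 and H2-Q10), with a median of 1.34. That is 25%, near the 22.6% of all genes. The number called was 1 without R6/2 replicate 1 and 15 without wild-type replicate 4, and without the arrays with Alb over 9 the median was 0.01.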
